A study of Mus musculus with 12 samples.

Results

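The clustered protocadherins are neural-type cell adhesion molecules encoded in 3 gene arrays on mouse chromosome 18, and their levels are described here in mouse embryonic fibroblasts with and without mutations named Ezh2a and Ezh2b. Members were every gene whose symbol names an alpha, beta or gamma clustered protocadherin. The rule used symbols only, and it found 57 members among 35602 symbols in the count table, with 14 in the alpha, 22 in the beta and 21 in the gamma cluster. On the mouse build GRCm38 (RefSeq), the alpha cluster spans 258.6 kb from position 36930285 to 37188897 of chromosome 18. The beta cluster spans 256.4 kb from 37264998 to 37521419, and the gamma cluster 180.1 kb from 37661775 to 37841873, with all members on the plus strand.

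Each numbered exon of the alpha and gamma clusters has its own promoter and encodes the extracellular, transmembrane and proximal cytoplasmic part of a protein, and it is spliced to constant exons shared by the whole cluster. Beta genes are single-exon genes for the most part and share no constant exons. In neurons, stochastic promoter choice guided by CTCF and cohesin gives each cell its own combination of alternate isoforms, whose homophilic binding lets a neurite recognise and avoid itself, while the C-type isoforms at the ends of the alpha and gamma clusters are expressed in a more uniform way.

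The study measured RNA in 4 groups of 3 libraries each: Ezh2a mutant, Ezh2a wild type, Ezh2b mutant and Ezh2b wild type cells. EZH2 is the histone methyltransferase within PRC2, a Polycomb complex that represses developmental genes, and the study's title concerns cryptic splice sites that give rise to its isoforms. The labels state neither the molecular nature of each mutation nor the strain, sex or age of the embryos, and they do not say whether replicates were separate embryos or cultures, so p-values measure the spread between these libraries, which may be technical. RNA was selected with poly-T beads, and the values are read counts per gene.

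Library totals ranged from 28811482 to 54070380 counts, and 15708 genes, 44 of them members, passed the filter on low counts. Ezh2 itself stood at 14.2, 15.2 and 14.2 CPM (counts scaled to library totals corrected by TMM factors, which use trimmed means) in the Ezh2a mutant libraries and at 30.5, 30.4 and 30.1 CPM in the Ezh2a wild type libraries. It stood at 35.4, 33.6 and 36.4 CPM in the Ezh2b mutant and at 33.8, 35.8 and 35.3 CPM in the Ezh2b wild type libraries. The Ezh2 count was thus lower in the Ezh2a mutant, by edgeR's quasi-likelihood test (log2 fold change -1.06, SE 0.05, adjusted p = 3.4e-11), and it did not pass the test in the Ezh2b mutant (0.00, SE 0.05, adjusted p = 0.97). A gene-level count does not separate splice isoforms. Ezh2b wild type replicate 3, the deepest library, stood apart from its group, with a mean chi-square per gene of 11.3 and 12.4 against the other replicates, beside 2.63 to 4.67 for every other pair within a group. Summed fibroblast markers lay between 63300 and 73800 CPM in the 12 libraries, and most of this sum was Col1a1, Col1a2 and Fn1. Single markers differed between groups at an adjusted p under 0.05 in the same test. Of 15 tested, 5 were higher and 4 lower in the Ezh2a mutant, or 60% beside 19.8% of all tested genes. In the Ezh2b mutant 9 were higher and 5 lower, or 93.3% beside 26.1%. In the Ezh2b against the Ezh2a wild type 5 were higher and 9 lower, or 93.3% beside 42.3%. The 15 macrophage markers summed to 1630 to 1750 CPM in the Ezh2a mutant, 1760 to 1810 in the Ezh2a wild type, 502 to 538 in the Ezh2b mutant and 108 to 121 in the Ezh2b wild type libraries. In such bulk RNA, fewer cells of a type and less RNA per cell cannot be told apart.

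The 3 clusters differed in how many members were detected and in how evenly they were expressed. In the alpha cluster, 4 of 14 members passed the filter, namely Pcdha9, Pcdha10, Pcdha12 and Pcdhac2. The other 10 had 0 to 81 counts summed over all 12 libraries, and Pcdha1 had none. In the beta cluster, 19 of 22 members passed, and Pcdhb1 had no count in any library. All 21 gamma members passed, and none of them fell below 4.80 CPM in any library. A member that passed on counts from only some groups is more likely to differ between groups, so the counts of tested members below refer to the 44 and not to all 57.

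One member led each cluster. Pcdhac2, a C-type isoform needed in mice for serotonergic axons to spread evenly, made up a mean of 88.3% ± 0.623 (SD, n = 3) of alpha counts in the Ezh2a wild type and 96.4% ± 1.70 in the Ezh2b wild type. Pcdhgc3, the first of the gamma C types, made up between 52.6% ± 0.493 of gamma counts in the Ezh2b mutant and 55.2% ± 0.687 in the Ezh2a wild type. Pcdhb17 made up between 19.7% ± 0.866 of beta counts in the Ezh2b wild type and 24.0% ± 0.510 in the Ezh2a wild type. These 3 genes were the highest of their cluster in 12 of 12 libraries, both as CPM and per kilobase of exon.

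Per kilobase of exon, the highest mean levels over the 12 libraries were 70.1 CPM for Pcdhgc3, 6.39 for Pcdhac2, 6.34 for Pcdhgb6 and 5.08 for Pcdhgb2. Pcdhb17, the highest beta member, stood at 3.57, below further gamma members such as Pcdhga3 (4.67) and Pcdhga7 (4.63). Pcdhgc3 was therefore the most abundant member on this scale. The C types did not share a level: Pcdhgc5, which associates with GABA receptors in neurons, stood at 4.53 CPM per kilobase, and Pcdhac1 stood at 0.0253. Pcdhgc4, the isoform that interneurons need to survive in mice, averaged 6.75 ± 0.522 CPM among Ezh2a wild type libraries and 6.44 ± 0.746 CPM among Ezh2b wild type libraries (SD, n = 3). Pcdhb22 and Pcdhb19, the next beta members by level with Pcdhb16, averaged 12.9 ± 1.22 and 8.86 ± 0.579 CPM among Ezh2a wild type libraries. Pcdha12 and Pcdha9, the low alternate alpha members, averaged 1.18 and 0.267 CPM over all libraries.

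**Figure D1:**
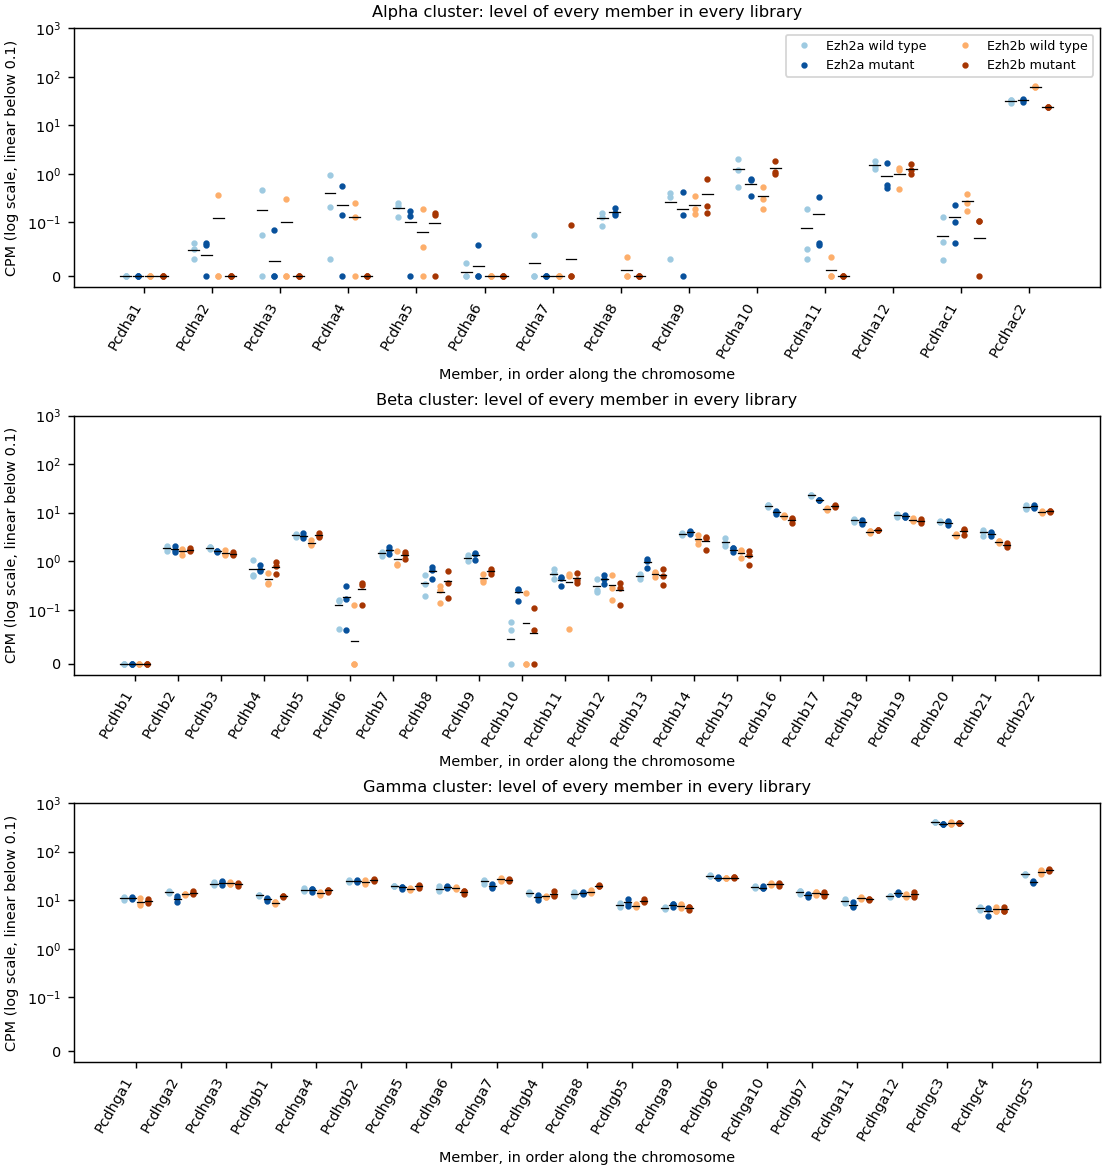
Level of all 57 members in every library, in CPM on a log axis that is linear below 0.1, with members in order along the chromosome, dots for single libraries and short bars for group means. Pcdhac2 and Pcdhgc3 stand far above the other members of the alpha and gamma clusters, and beta levels are highest from Pcdhb16 to Pcdhb22.

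Along the beta cluster, the levels were not even. The 7 members from Pcdhb16 to Pcdhb22 had mean levels of 3.06 to 16.7 CPM, while the 12 tested members from Pcdhb2 to Pcdhb15 had 0.328 to 3.24 CPM. Gamma A members ranged from 7.41 to 24.1 CPM and gamma B members from 8.61 to 29.7 CPM. How reads in shared exons were assigned bears on these levels: alpha members share 38.0% to 54.9% of their exon bases with other members and gamma members 27.8% to 66.8%, whereas beta members share 0 to 9.67%. The labels do not name the counting program or how it handled such reads, so the level of a single alpha or gamma member is uncertain, and a sum over a cluster is less dependent on it. Per kilobase of exon bases not shared with other members, Pcdhgc3 still led, at 114 CPM. The order below it changed, and Pcdhga4 (10.0) then passed Pcdhgb2 (8.98). Per kilobase of all exon bases these 2 stood at 3.33 and 5.08.

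The summed alpha level differed most between groups. It was 35.7, 32.2 and 38.0 CPM in the Ezh2a mutant libraries and 36.8, 37.6 and 33.7 CPM in the Ezh2a wild type libraries. It was 27.3, 26.9 and 27.3 CPM in the Ezh2b mutant and 66.6, 63.1 and 63.7 CPM in the Ezh2b wild type libraries. The Ezh2a groups overlapped, the Ezh2b wild type stood above all other libraries, and the Ezh2b mutant stood below all of them, at 0.421 times the mean of its wild type. Most of this sum is Pcdhac2.

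The beta sum separated the Ezh2a from the Ezh2b libraries. It was 85.1, 86.4 and 85.3 CPM in the Ezh2a mutant, 92.1, 96.2 and 93.7 CPM in the Ezh2a wild type, 63.3, 64.0 and 65.0 CPM in the Ezh2b mutant and 61.8, 60.8 and 61.9 CPM in the Ezh2b wild type. All 6 Ezh2a libraries were above all 6 Ezh2b libraries, and the ratio of the wild type means was 0.654. The Ezh2a mutant libraries were also all below their wild type, with a ratio of 0.911. The Ezh2b mutant libraries were all above theirs, with a ratio of 1.04, but without TMM factors the Ezh2b groups overlapped, at 61.8, 62.6 and 63.5 CPM in the mutant and 61.5, 60 and 62.5 CPM in the wild type.

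The gamma sum moved little. It was 670, 685 and 664 CPM in the Ezh2a mutant, 735, 744 and 748 CPM in the Ezh2a wild type, 718, 732 and 730 CPM in the Ezh2b mutant and 747, 698 and 694 CPM in the Ezh2b wild type. The Ezh2a mutant libraries were all below their wild type, at 0.906 times its mean, and the Ezh2b groups overlapped. The Ezh2a mutant libraries were also below all Ezh2b libraries, but not without TMM factors, where the former stood at 690, 702 and 681 CPM and an Ezh2b wild type library at 688 CPM. No test was made on these sums.

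**Figure D2:**
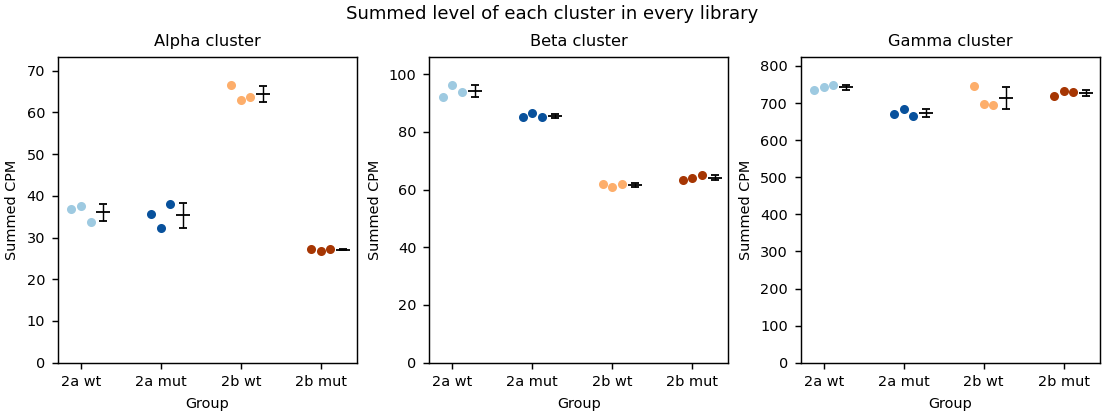
Summed level of each cluster in CPM for each library (dots) with the group mean and SD beside them (n = 3), for wild type (wt) and mutant (mut) of Ezh2a and Ezh2b. The alpha sum is highest in the Ezh2b wild type at a mean of 64.5 CPM and lowest in the Ezh2b mutant at 27.1 CPM, and the beta sum is higher in all Ezh2a than in all Ezh2b libraries.

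Between the Ezh2a mutant and its wild type, 10 members were lower and 1 was higher at an adjusted p under 0.05, all by less than 2-fold on the linear scale. That is 11 of 44 tested members, or 25%, beside 19.8% of all tested genes called in either direction, 10.2% lower and 9.61% higher. The share called is near that of all genes. The median log2 fold change was -0.07 over the 44 members and 0.00 over all tested genes.

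Gamma members made up 8 of the 10 that were lower, which is 38.1% of the 21 gamma members beside 10.2% of all tested genes. No gamma member was higher. Pcdhgc5 stood at 22.9, 23.2 and 25.4 CPM in the mutant and at 34.0, 34.5 and 33.0 CPM in the wild type libraries. The groups did not overlap, and Pcdhgc5 fell by 0.51 on the log2 scale (SE 0.07, adjusted p = 1.4e-05). Pcdhga2, a gamma A isoform, stood at 11.9, 11.2 and 9.08 CPM against 14.3, 14.4 and 15.7 CPM. All 3 mutant libraries were lower (log2 fold change -0.46, SE 0.09, adjusted p = 8.1e-04). Pcdhga7 fell by 0.33 on the log2 scale (SE 0.08, adjusted p = 0.0055), again without overlap. Pcdhgc3 stood at 362, 373 and 362 CPM against 402, 416 and 411 CPM, so every mutant library was lower, by a small amount (-0.17, SE 0.04, adjusted p = 0.0019). Pcdhgb4, Pcdhgb1, Pcdhgb6 and Pcdhga11 were lower by 0.14 to 0.30, and the libraries of Pcdhga11 overlapped. Some marker sums fell in the same comparison. The 10 skeletal muscle markers summed to 42.5 to 45.3 CPM in the mutant and 121 to 129 CPM in the wild type. Myod1, Myf5 and Myh3 were at 0 in all libraries. Of 4 tested, 3 were lower, or 75% beside 10.2% of all tested genes. Most of the muscle sum was Des, at means of 34.2 CPM in the mutant and 109 CPM in the wild type. The 10 epithelial markers summed to 9.48 to 10.3 against 26.3 to 27.2 CPM, with Esrp1 at 0 throughout. Of 5 tested, 3 were lower, or 60% beside 10.2%. The part of these lists in the gamma differences was not tested.

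In the beta cluster, Pcdhb17 and Pcdhb16, neighbouring single-exon genes, were lower. Pcdhb17 stood at 18.3, 17.96 and 18.6 CPM in the mutant and at 22.7, 22.8 and 22.4 CPM in the wild type libraries. The gap was wide against the spread within groups (-0.31, SE 0.06, adjusted p = 8.1e-04). Pcdhb16 stood at 10.3, 10.9 and 9.39 CPM against 13.0, 14.2 and 14.2 CPM, also without overlap (-0.44, SE 0.09, adjusted p = 0.0014). Pcdhb13 was the 1 member that was higher, from 19, 17 and 14 counts in the wild type to 25, 34 and 32 in the mutant (0.94, SE 0.30, adjusted p = 0.034). No alpha member passed the test, and Pcdhac2 differed by 0.04 on the log2 scale (SE 0.06, adjusted p = 0.71).

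Of these 11 calls, 6 held under every alternative setting tried, namely those of Pcdhgc5, Pcdhga2, Pcdhga7, Pcdhgc3, Pcdhb17 and Pcdhb16. Calls for Pcdhb13, Pcdhgb6, Pcdhga11, Pcdhgb1 and Pcdhgb4 were lost in 4 or 5 of the 6 fits that left out 1 library each. The count of members called was 7 without Ezh2a mutant replicate 1, 7 without mutant replicate 2, 7 without wild type replicate 1 and 6 without wild type replicate 2.

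Between the Ezh2b mutant and its wild type, Pcdhac2 had the lowest adjusted p of all members. It stood at 23.9, 23.5 and 24.4 CPM in the mutant and at 64.4, 61.8 and 60.2 CPM in the wild type libraries. The groups were far apart (-1.38, SE 0.06, adjusted p = 5.6e-13), and the call held under every alternative, where the highest adjusted p was 3.6e-10. Without Ezh2b wild type replicate 3 the change was -1.39 (adjusted p = 1.9e-12). Both Ezh2a groups lay between these levels, at 32.7 ± 2.24 CPM in the mutant and 31.8 ± 2.01 CPM in the wild type (SD, n = 3). The Ezh2b wild type was the highest group and the Ezh2b mutant the lowest.

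Marker sums also differed within the Ezh2b pair. The 15 neuronal markers summed to 134 to 141 CPM in the Ezh2b wild type libraries and to 117 to 123 in the Ezh2b mutant. Of 9 tested, 1 was higher and 2 lower in the mutant, or 33.3% beside 26.1% of all tested genes. The neuronal markers summed to 92.7 to 95.3 CPM in the Ezh2a wild type and 111 to 116 in the Ezh2a mutant. The defining neuronal genes Rbfox3 and Snap25 had no counts in any library. The largest part of the neuronal sum was Map2, at means of 88.5 CPM in the Ezh2b wild type and 52.5 CPM in the Ezh2b mutant. Tubb3 went the other way, at means of 18.2 and 40 CPM. Other lists were higher in the Ezh2b mutant. Of the macrophage markers 15 of 15 were higher, or 100%. The 10 endothelial markers summed to 139 to 141 CPM in the mutant and 75.4 to 85.4 CPM in the wild type. Cldn5 was at 0 in all libraries. Of 5 tested, 3 were higher and 2 lower, or 100%. Most of the endothelial sum was Flt1, at means of 132 CPM in the mutant and 64.6 CPM in the wild type. The 10 Schwann cell and glial markers summed to 10.9 to 11.3 against 7.04 to 7.54 CPM. Of 8 tested, 4 were higher and none lower, or 50%. These shares stand beside 26.1% of all tested genes called in either direction. The part of these lists in the Pcdhac2 difference was not tested.

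Beyond Pcdhac2, 9 members changed between the Ezh2b groups, 7 upward and 2 downward. In all, 10 of 44 members, or 22.7%, were called, beside 26.1% of all tested genes, 14% higher and 12.1% lower, so the share was near that of all genes. The median over the 44 members was 0.08 and over all tested genes -0.01. Pcdha10, a low-count alternate alpha isoform, had 53, 50 and 31 counts in the mutant and 6, 9 and 29 in the wild type, from libraries of different totals. As CPM the values were 1.88, 1.09 and 0.98 against 0.19, 0.31 and 0.53, without overlap (1.79, SE 0.45, adjusted p = 0.0053). Pcdhac2 and Pcdha10 were the members called with a change of at least 2-fold.

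Gamma members in this comparison included 4 that rose and 1 that fell, or 23.8% of the 21 gamma members beside 26.1% of all tested genes. Pcdhgb1 stood at 12.1, 11.7 and 12.1 CPM in the mutant and at 9.22, 8.98 and 8.44 CPM in the wild type libraries. Pcdhga8 stood at 20.6, 19.4 and 19.8 CPM against 15.9, 14.8 and 13.7 CPM. Neither gene's groups overlapped, with log2 fold changes of 0.43 (SE 0.08, adjusted p = 1.9e-04) for Pcdhgb1 and 0.43 (SE 0.07, adjusted p = 1.6e-04) for Pcdhga8. Pcdhgb5 (0.34, adjusted p = 0.027) and Pcdhga5 (0.19, adjusted p = 0.044) were also higher, and Pcdhga6 was lower (-0.28, adjusted p = 0.011). Pcdhgc3, the main gamma isoform, had a change of -0.01 (SE 0.04, adjusted p = 0.89). In the beta cluster, Pcdhb5 (0.50, adjusted p = 0.013) and Pcdhb17 (0.18, adjusted p = 0.045) were higher and Pcdhb16 (-0.27, adjusted p = 0.043) was lower.

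Calls for Pcdhac2, Pcdha10, Pcdhgb1 and Pcdhga8 held under every alternative. The call for Pcdhb5 was lost without Ezh2b mutant replicate 1 (adjusted p = 0.059), and that for Pcdhga6 without mutant replicate 1 or wild type replicate 3 (highest adjusted p = 0.078). Calls for Pcdhb16, Pcdhb17, Pcdhga5 and Pcdhgb5 were lost in 3 or 4 of the 6 fits that left out a library. The count of members called was 6 without Ezh2b mutant replicate 1 and 6 without wild type replicate 3.

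**Figure D3:**
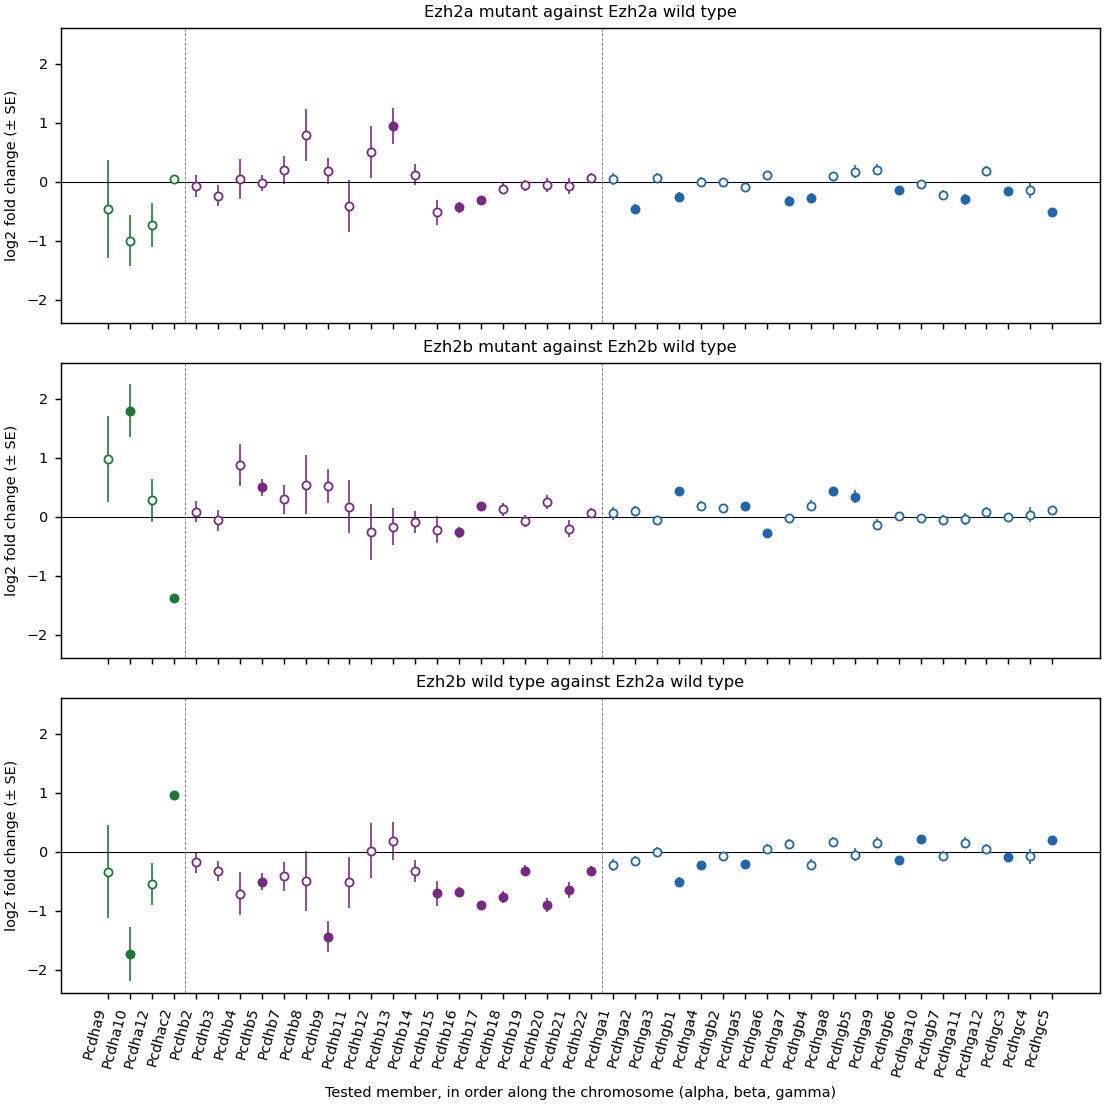
Log2 fold change with its SE for the 44 tested members in order along the chromosome, with alpha in green, beta in purple and gamma in blue, and filled circles for an adjusted p under 0.05. In the Ezh2a comparison 8 gamma members are lower, in the Ezh2b comparison Pcdhac2 falls and Pcdha10 rises, and between the wild types 10 beta members are lower in Ezh2b.

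Whether the effects differed was tested as an interaction over all 12 libraries. The test passed for 12 of 44 members, or 27.3%, beside 26.5% of all tested genes, 14.7% with a higher and 11.9% with a lower Ezh2b effect. The share passing in either direction was again near that of all genes, but direction and cluster were uneven. For 10 of the 12, or 22.7% of the 44, the Ezh2b effect was the higher. For Pcdhac2 and Pcdhga6, or 4.55%, it was the lower. Without TMM factors the split was 6 higher and 3 lower. By cluster, 9 of 21 gamma members passed, or 42.9%, and 8 of them, or 38.1% of the 21, had the higher Ezh2b effect. In the beta cluster 1 of 19 passed, or 5.26%, and in the alpha cluster 2 of 4.

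Pcdhgb1 had effects of opposite sign, -0.25 (SE 0.08, adjusted p = 0.022) in Ezh2a and 0.43 in Ezh2b, and they differed by 0.69 (SE 0.11, adjusted p = 5.8e-05). Its Ezh2a call was among those lost in some fits. Pcdhb17 likewise was lower in the Ezh2a mutant and higher in the Ezh2b mutant, with a difference of 0.48 (SE 0.09, adjusted p = 2.4e-04). The Ezh2b rise of Pcdhb17 was small (0.18, adjusted p = 0.045). That call was lost without Ezh2b wild type replicate 3 (adjusted p = 0.077). Pcdhgc5 fell in Ezh2a and had a change of 0.11 (SE 0.06, adjusted p = 0.23) in Ezh2b, where its mutant libraries stood at 43.1, 41.1 and 40.7 CPM and its wild type libraries at 40.1, 42.1 and 34.4 CPM. The Ezh2b groups of Pcdhgc5 overlapped, and the difference between the effects was 0.61 (SE 0.09, adjusted p = 3.1e-05).

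**Figure D4:**
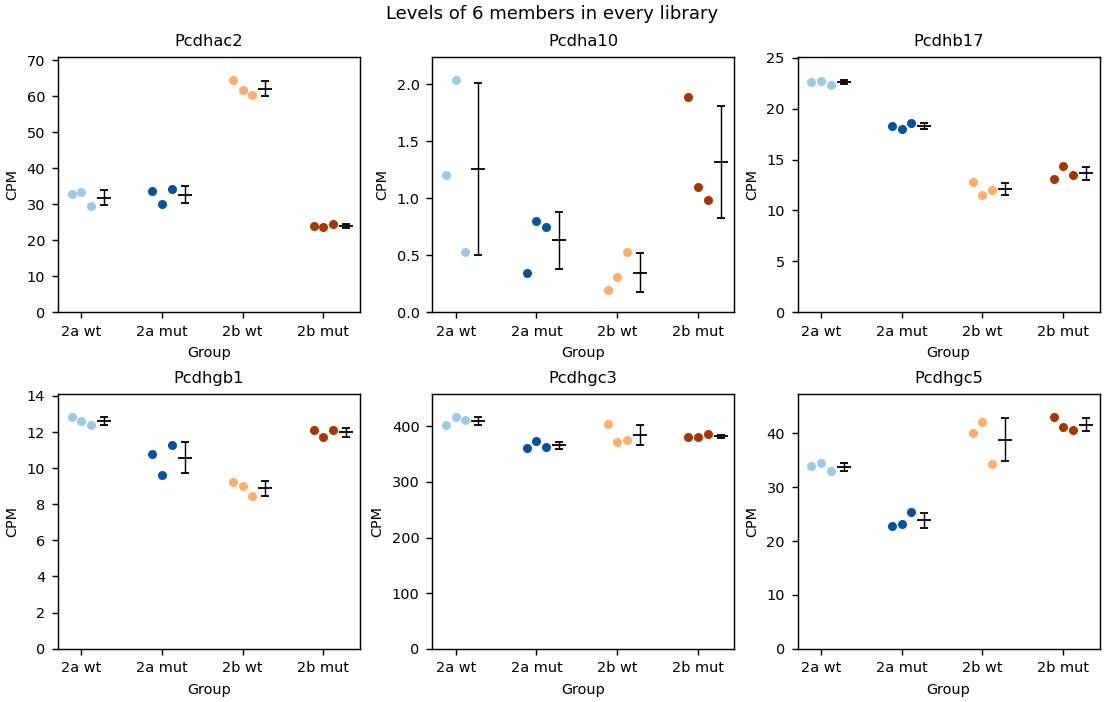
CPM of 6 members in each library (dots), with the group mean and SD beside them (n = 3), for wild type (wt) and mutant (mut) of Ezh2a and Ezh2b. Pcdhac2 is highest in the Ezh2b wild type, Pcdhgc5 is lowest in the Ezh2a mutant, and Pcdhb17 is higher in all Ezh2a than in all Ezh2b libraries.

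The wild type groups differed from each other in more members than either mutant did from its wild type. Between them 19 of 44 members were called, or 43.2%, beside 42.3% of all tested genes, 20.4% higher and 21.8% lower, which is again near the share of all genes. In the Ezh2b wild type 3 members were higher and 16 lower. These libraries also enter the mutant comparisons, so the results are not independent. Both groups are labelled wild type, and the labels do not give them a shared origin. Strain, embryo and culture cannot be told apart here.

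In the beta cluster 10 of 19 tested members were lower in the Ezh2b wild type and none was higher. That is 52.6% lower, beside 21.8% of all tested genes. The median beta log2 fold change was -0.51 beside 0.00 for all tested genes. Without Ezh2b wild type replicate 3, 10 of these 19 members were lower and 0 higher, with a median of -0.59. All 7 members from Pcdhb16 to Pcdhb22 were lower, by 0.32 to 0.90. Pcdhb17 stood at 12.8, 11.5 and 12.0 CPM in the Ezh2b and, as above, near 22.6 CPM in the Ezh2a wild type libraries (-0.90, SE 0.06, adjusted p = 2.9e-10). Pcdhb20 stood at 3.70, 3.37 and 3.42 CPM against 6.51, 6.29 and 6.75 CPM, without overlap (-0.90, SE 0.12, adjusted p = 4.5e-06). Among the 12 tested members from Pcdhb2 to Pcdhb15, which had lower counts, Pcdhb9, Pcdhb15 and Pcdhb5 were lower. Pcdhb9 had the largest beta change, at 0.42, 0.55 and 0.37 CPM against 1.02, 1.32 and 1.21 CPM (-1.44, SE 0.26, adjusted p = 1.5e-04), and the groups did not overlap. All 15 macrophage markers were lower in the Ezh2b wild type as well, beside 21.8% of all tested genes. The part of these markers in the beta difference was not tested.

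Pcdhac2 was higher in the Ezh2b wild type by 0.96 (SE 0.05, adjusted p = 1.7e-11), and Pcdha10 was lower by 1.74 with overlapping libraries (SE 0.45, adjusted p = 0.0042). Gamma members changed less, with 2 higher and 5 lower, or 33.3% of the 21 gamma members beside 42.3% of all tested genes. Pcdhgb1 had the largest gamma change (-0.51, SE 0.08, adjusted p = 1.7e-05). Pcdhga10 and Pcdhgc5 were higher by 0.22 and 0.19. Calls for 8 of the 19, namely Pcdhb15, Pcdhb19, Pcdhga4, Pcdhga5, Pcdhga10, Pcdhgb6, Pcdhgc3 and Pcdhgc5, were lost under at least 1 alternative. The call for Pcdhb15 was lost without Ezh2a wild type replicate 2 (adjusted p = 0.067) and that for Pcdhga10 without Ezh2a wild type replicate 3 (adjusted p = 0.064).

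A list of candidate regulators of the clusters, which includes general chromatin genes, held 25 tested genes. Of these, 6 were higher and 3 lower in the Ezh2a mutant, which is 36% beside 19.8% of all tested genes. These included the DNA demethylase Tet1 (0.49, adjusted p = 2.1e-04), the DNA methyltransferases Dnmt3a (0.26, adjusted p = 3.1e-04) and Dnmt1 (0.20, adjusted p = 0.0012), and the cohesin release factor Wapl (-0.17, adjusted p = 0.0039). In the Ezh2b mutant 5 were lower and none higher, which is 20% beside 26.1% of all tested genes. They included the cohesin subunit Rad21 (-0.25, adjusted p = 9.7e-06) and Smchd1, a chromatin protein that represses clustered protocadherins in mice (-0.14, adjusted p = 0.0068). Mean Rad21 was 182 CPM in the Ezh2b wild type, 153 in the Ezh2b mutant and 157 in the Ezh2a wild type. Mean Smchd1 was 100, 90.5 and 93.4 CPM in these groups. Ctcf did not pass in either comparison, at 0.12 (adjusted p = 0.067) in Ezh2a and -0.05 (adjusted p = 0.43) in Ezh2b. Of 12 tested PRC2 genes, Ezh2 was the 1 called in the Ezh2a mutant, and 3 were lower in the Ezh2b mutant, which are shares of 8.33% and 25%. In the Ezh2b against the Ezh2a wild type, 7 regulators were higher and 2 lower, or 36% beside 42.3% of all tested genes. Of the PRC2 genes 7 were higher and 1 lower there, or 66.7%.

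Protocadherins encoded elsewhere in the genome were taken as a separate list. Pcdh10, a delta protocadherin that recruits the actin-regulating WAVE complex, stood at 16.8, 16 and 15 CPM in the Ezh2a mutant and at 3.88, 3.45 and 3.83 CPM in the Ezh2a wild type libraries. The groups were far apart (2.09, SE 0.12, adjusted p = 1.5e-10). Pcdh10 went the other way in the Ezh2b mutant (-0.39, SE 0.12, adjusted p = 0.018). Of the 11 tested non-clustered protocadherins, 3 were higher and 1 lower in the Ezh2a mutant, or 36.4% beside 19.8% of all tested genes. In the Ezh2b mutant 3 were higher and 5 lower, or 72.7% beside 26.1%. Pcdh17 (-0.58, adjusted p = 3.8e-04) and Pcdh19 (-0.32, adjusted p = 2.8e-07) were lower in the Ezh2b mutant. Mean Pcdh17 was 11.4 CPM in the Ezh2b wild type, 7.66 in the Ezh2b mutant and 8.72 in the Ezh2a wild type. Mean Pcdh19 was 280, 224 and 177 CPM in these groups. In the Ezh2b against the Ezh2a wild type, 4 of the list were higher and 1 lower, or 45.5% beside 42.3%.

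Of 19 tested partners and kinases downstream of the clusters, 3 were higher and 2 lower in the Ezh2b mutant, or 26.3%, near the 26.1% of all tested genes. Cyfip2, a WAVE complex subunit, was higher by 1.31 (SE 0.16, adjusted p = 2.8e-06), the kinase Fyn was higher by 0.57 (SE 0.04, adjusted p = 1.1e-09), and the kinase Prkca was lower (-0.47, SE 0.04, adjusted p = 4.8e-08). In the Ezh2a mutant 2 were higher and 3 lower, also 26.3%, beside 19.8%. In the Ezh2b against the Ezh2a wild type, 8 were higher and 4 lower, or 63.2% beside 42.3%. Means in the Ezh2b wild type, Ezh2b mutant and Ezh2a wild type were 1.37, 3.51 and 4.8 CPM for Cyfip2. They were 52, 77.5 and 64 CPM for Fyn and 103, 74.1 and 56.6 CPM for Prkca. Of the 25 tested chromosome neighbours, 1 was higher and 1 lower in the Ezh2a mutant, and 3 were higher and 2 lower in the Ezh2b mutant. These are 8% beside 19.8% and 20% beside 26.1% of all tested genes. Taf7, a transcription factor subunit gene that lies between the beta and gamma clusters, had changes of 0.00 (adjusted p = 1) and 0.02 (adjusted p = 0.95). Diaph1, which begins 1.7 kb after the gamma cluster, had changes of -0.01 (adjusted p = 0.85) and 0.01 (adjusted p = 0.88). The neighbours Cd14 and Arap3 rose in the Ezh2b mutant by 1.51 and 1.69, and Cd14 is itself expressed by macrophages. Mean Cd14 was 2.29 CPM in the Ezh2b wild type, 6.5 in the Ezh2b mutant and 21.8 in the Ezh2a wild type. Mean Arap3 was 1.91, 6.19 and 15.1 CPM in these groups. In the Ezh2b against the Ezh2a wild type, 5 neighbours were higher and 3 lower, or 32%.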

How the data were processed

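The deposited table holds raw counts per gene symbol, which the authors made from reads of 12 libraries. The submitters' processing notes name fastp 0.21.0, HISAT2 2.1.0, StringTie 2.1.5, edgeR 4.2.1 and GRCm38. Which program, annotation and strand mode produced the counts is not given in the sources used here. In each library 266 to 295 genes had a count of 1 and 940 to 1181 had a count of 2, so a count may not stand for 1 independent fragment. One alternative divided the counts by 2.

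Genes were filtered with filterByExpr, scaled by TMM and tested in 1 edgeR 4.0.16 quasi-likelihood fit (R 4.3.3) over all 12 libraries with 8 residual degrees of freedom. P-values were Benjamini-Hochberg adjusted over 15708 genes, and an adjusted p under 0.05 was called. Levels are CPM after TMM. Cluster sums had no test. Positions came from RefSeq, and shared exon bases from GENCODE M21, where the gene at the start of Pcdha10 carries another name. Alternatives were DESeq2 1.42.0, other scalings and filters, fewer libraries and a replicate block. Members and gene lists were chosen with earlier results of these data known. Named were the 4 most abundant members of each cluster, the C types, and up to 6 called members in each direction per comparison, and up to 4 called genes per list. Further called members were named after their values were seen. No sequences are shown.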

Additional observations from a re-analysis of the deposited data

Results flagged for a closer look

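The Ezh2b and Ezh2a effects differed, by the interaction test in edgeR, for 12 members. The difference in log2 fold change (Ezh2b effect minus Ezh2a effect) was 2.79 for Pcdha10, a member with low counts, and -1.41 for Pcdhac2. It was 0.69 for Pcdhgb1, 0.61 for Pcdhgc5, 0.56 for Pcdhga2, 0.48 for Pcdhb17 and 0.46 for Pcdhgb4. Smaller differences were found for Pcdhga6 (-0.39), Pcdhga8 (0.34), Pcdhga7 (0.31), Pcdhga5 (0.28) and Pcdhgc3 (0.16). Differences for 8 of the 12 passed under every alternative, and those of Pcdhga5, Pcdhga7, Pcdhga8 and Pcdhgc3 did not.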

How the results depend on the processing

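No member reversed its direction past the threshold under any alternative run. With library totals instead of TMM factors, the count of members called in the Ezh2a comparison was 7 instead of 11, and mean cluster sums moved by more than 1 SD to 26.5 CPM (alpha) and 62.6 (beta) in the Ezh2b mutant, 87.9 (beta) and 691 (gamma) in the Ezh2a mutant and 710 (gamma) in the Ezh2b mutant. That scaling moved the median of all genes by at most 0.07 on the log2 scale, and called genes split into 2061 higher and 1117 lower for Ezh2a, against 1509 and 1609 with TMM. For Ezh2b the split was 1910 and 2525 against 2200 and 1905, and for the difference between effects 1723 and 2787 against 2305 and 1863. Leaving out 1 library at a time gave 6 to 10 members for Ezh2a, 6 to 12 for Ezh2b, 9 to 12 for the difference and 16 to 20 between wild types. DESeq2 called 9, 7, 12 and 18, and counts divided by 2 called 11, 10, 12 and 19. With a replicate block the counts were 10, 7, 12 and 17, the last from a fit on the 6 wild type libraries alone, in which 42 members were tested. Same-numbered libraries did not deviate together (correlations of -0.048 to 0.037). With 3 libraries per group this check cannot exclude that the numbers pair the samples. Fitting only the libraries of a comparison could not be done for the difference between effects, which uses all 12. Where calls were lost, the cause was not tested. Low counts limit the alternate alpha members and Pcdhb2 to Pcdhb15, and reads in shared exons limit single alpha and gamma members.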
